A study of Mus musculus with 20 samples.

Results

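Acetylation of histone H3 at lysine 27 (H3K27ac) was compared between livers of double-knockout mice, which lacked both Cpt2 and Ppara, and livers of wild-type (WT) mice. The comparison used 4 libraries of chromatin immunoprecipitation followed by sequencing (ChIP-seq), 2 livers of each genotype. Its members were the 58009 H3K27ac intervals, of 65776 in the consensus set of the series, that held a peak in at least 1 of the 4 libraries. In each library an interval took the fold over input of its highest overlapping peak. An interval was counted as gained where it held a peak in both double-knockout (DKO) livers and in neither WT liver, and as lost in the opposite case. There were 8288 gained and 5259 lost intervals, and 20015 were shared, with a peak in all 4 livers. The folds of the shared intervals were put on a log2 scale, centred on each library's median and compared with limma.

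All mice were C57BL/6 males of 9 weeks, kept on chow and fasted for 24 hours before the liver was taken and flash-frozen. WT mice carried neither deletion, and DKO mice carried a liver knockout of Cpt2 together with a whole-body knockout of Ppara. The series also holds livers with the Cpt2 liver knockout alone (Cpt2 KO) and with the Ppara knockout alone (Ppara KO), 2 of each. The labels do not name the promoter that drives the Cre recombinase and do not say whether mice were littermates. They do not state that each library is a separate animal either, so p-values measure only the spread between these samples.

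H3K27ac marks active promoters and enhancers and is widely used to tell which regulatory elements of a tissue are in use. Cpt2 is the inner-membrane carnitine palmitoyltransferase that hands long-chain fatty acids to mitochondrial oxidation. Ppara is the fatty-acid-activated nuclear receptor that, in the fasted liver, switches on genes of peroxisomal, mitochondrial and microsomal fatty acid oxidation and of ketone body synthesis.

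The lists held 46140 and 45151 peaks in WT and 48929 and 48124 in DKO livers. Over the shared intervals the median fold was 9.45 and 10.8 in WT and 11.5 and 13.2 in DKO, a difference that the centring removes. The spread between livers of 1 genotype was 0.333 on the log2 scale in WT and 0.291 in DKO. The smallest peak width, a property of the peak calling, also went with genotype: it was 206 and 198 bases in WT and 217 and 223 in DKO. With that width as a covariate no shared interval passed limma with Benjamini-Hochberg adjustment in either direction (0 at an adjusted p under 0.05, 1857 at an unadjusted p under 0.05). The genotype means were in that fit too, so the width was judged only by small differences between livers of 1 genotype. The fit can therefore hardly tell width from genotype and gives no verdict on either. Of 133 called intervals given by name, 4 turned direction in it. Where adjusted p is given over all alternatives, this fit gave the highest value, except at Eci1 and Scarb1. There, averaging the peaks in an interval did. The part of the width in the calls below was not tested in any other way. Of 10 hepatocyte marker genes 9 were assigned a peak in each of the 4 libraries, and the tenth, Apoa1, was assigned none. An interval was assigned only to the gene nearest its middle, so a peak at a gene can be counted for a neighbour.

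The targeted genes were examined first. At Cpt2 (chromosome 4, 107903982 to 107923589, assembly GRCm38.p6, which is mm10), the interval with the gene start, chr4:107920649-107924008, had folds of 11.5 and 16.9 in WT against 9.33 and 12.2 in DKO livers. These uncentred folds of the genotypes overlapped. Once centred, both DKO values lay below both WT values, but the difference did not pass (-0.68 on the log2 scale, limma adjusted p = 0.0703). Of the 4 intervals assigned to Cpt2, 1 was lost, at chr4:107901663-107903225 beside the end of the gene, where the WT folds were 7.77 and 9.87. H3K4me1, an enhancer mark measured in separate libraries, was called there with folds of 8.19 and 10.3 in WT and in neither DKO liver.

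Ppara, on chromosome 15 from 85734910 to 85806851, carried changes in both directions along its body. Of the 38 intervals assigned to Ppara 8 were lost, 1 was gained, 5 shared intervals fell and 1 rose. Another 7 shared intervals did not pass, and the other 16 held peaks with no such pattern. Assignment is to the nearest gene at any distance, so these counts are not of the gene body alone. At least 1 of the shared intervals that fell lay outside the gene, before its start. The interval with the gene start, chr15:85730896-85741526, had folds of 16.2 and 21.1 in WT against 32.3 and 43.9 in DKO, which is higher by 0.74 ± 0.19 on the centred log2 scale (SE, limma adjusted p = 0.0156). Inside the gene, chr15:85745608-85748290 had folds of 19.9 and 12.9 in WT against 5.0 and 6.67 in DKO, a difference of -1.76 ± 0.29 (adjusted p = 0.00252). In both intervals the 2 WT and the 2 DKO livers were apart. The gained interval, chr15:85801195-85801691, had folds of 7.33 and 9.9 in DKO and of 6.08 and 6.15 in Ppara KO livers, with no peak in WT or Cpt2 KO livers. The call at the start of Ppara was lost without WT replicate 1 (adjusted p = 0.0512) and without DKO replicate 2 (0.127), with adjusted p from 0.00742 to 0.787 over all alternatives, and the difference turned to -0.19 where the peaks in the interval were averaged.

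**Figure D1:**
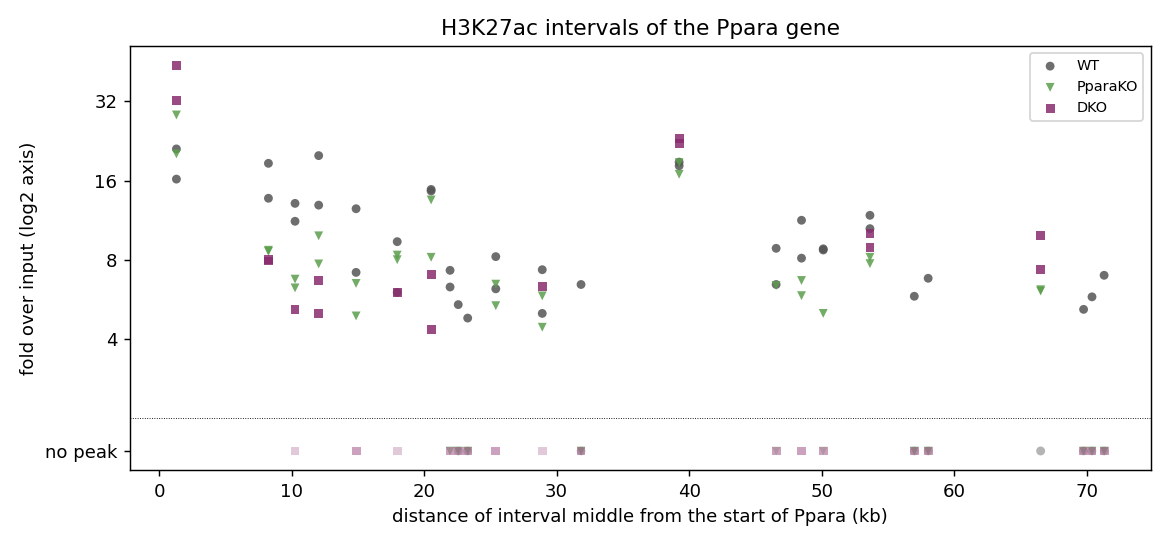
H3K27ac fold over input (log2 axis) in each liver for intervals in or near the Ppara gene, against the distance of the interval's middle from the start of the gene in kb; points on the lowest line are livers with no peak. The start of the gene is highest in the DKO livers (32.3 and 43.9), many intervals inside the gene have lower folds or no peak in DKO, and 1 interval far along the gene has peaks in Ppara KO and DKO livers only.

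Promoters of 5 genes are shown because their start sites lay inside intervals that changed and because they belong to the fatty acid and drug metabolism genes described below. Acaa1b, Acot1 and Acot4 lay in shared intervals that fell, Acot3 in a lost interval and Cyp3a13 in a shared interval that rose. Each sequence is the 200 bases before the start, 5′ to 3′ on the gene's strand, from RefSeq, GRCm38.p6. Capitals mark a CCAAT box or the AP-1 motif TGANTCA, both searched on either strand.
Acaa1b, chr9:119157094-119157293, minus strand: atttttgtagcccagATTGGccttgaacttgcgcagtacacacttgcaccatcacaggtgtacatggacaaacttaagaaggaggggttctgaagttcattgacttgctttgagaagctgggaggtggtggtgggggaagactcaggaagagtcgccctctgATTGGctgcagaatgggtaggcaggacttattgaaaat
Acot1, chr12:84009302-84009501, plus strand: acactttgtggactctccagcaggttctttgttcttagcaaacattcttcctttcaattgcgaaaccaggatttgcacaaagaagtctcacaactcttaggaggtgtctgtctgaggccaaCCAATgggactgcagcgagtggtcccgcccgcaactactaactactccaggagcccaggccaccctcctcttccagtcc
Acot3, chr12:84051944-84052143, plus strand: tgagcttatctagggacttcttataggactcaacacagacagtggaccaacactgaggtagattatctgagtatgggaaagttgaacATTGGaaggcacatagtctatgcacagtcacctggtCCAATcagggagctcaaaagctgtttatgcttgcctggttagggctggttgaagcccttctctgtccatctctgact
Acot4, chr12:84038179-84038378, plus strand: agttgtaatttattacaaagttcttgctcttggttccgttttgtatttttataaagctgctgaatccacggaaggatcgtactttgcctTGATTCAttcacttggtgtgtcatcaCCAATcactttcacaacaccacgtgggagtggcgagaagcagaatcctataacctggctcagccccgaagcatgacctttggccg
Cyp3a13, chr5:137921620-137921819, minus strand: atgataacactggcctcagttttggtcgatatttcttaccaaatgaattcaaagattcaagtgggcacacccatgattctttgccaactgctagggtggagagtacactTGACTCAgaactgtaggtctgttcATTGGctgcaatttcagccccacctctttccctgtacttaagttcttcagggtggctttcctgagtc
Acaa1b and Acot3 held 2 CCAAT boxes each, and the other 3 held 1 each. Acot4 and Cyp3a13 each held 1 AP-1 motif. AGGNCANAGGNCA, the direct repeat with a single spacer base that Ppara binds together with Rxra, was found in 0 of these 5 stretches, which says only that these letters are not in this window.

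Over all promoters the repeat was scarce and the CCAAT box was common. On both strands of the 250 bases before the start, AGGNCANAGGNCA was found at 4 of 1110 starts in shared intervals that fell (0.36%) and 1 of 481 in shared intervals that rose (0.208%). It was found at 7 of 371 starts in gained intervals (1.89%), 1 of 180 in lost intervals (0.556%) and 111 of all 32851 starts (0.338%). The AP-1 motif was found at 3.69% of the starts in intervals that fell, 8.52% in those that rose, 4.25% in shared intervals that were not called and 6.75% of all starts. A CCAAT box was found at 32.5% and 33.9% of the starts in intervals that fell and rose, and at 33.8% of all starts. These shares are a description with no test.

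Among the shared intervals 1636 rose and 2225 fell in DKO livers, 8.17% and 11.1% of the 20015 tested (limma, Benjamini-Hochberg adjusted p under 0.05). Both DKO values lay above both WT values in 5506 shared intervals (27.5%) and below them in 6407 (32.0%). Differences beyond 1 on the log2 scale were found upward in 768 intervals and downward in 1346, of which 753 and 1316 passed. WT and DKO livers did not overlap in 767 and 1345 of these, so livers that lie apart add little to a large difference. Beyond 2 on the log2 scale there were 7 rises and 30 falls, which all passed. When the intervals were ranked by level into 5 equal parts, 265 rose and 619 fell in the highest part, and 481 rose and 442 fell in the middle part. The split depends on the centring: without it 3093 rose and 910 fell, with a median shift of 0.24 on the log2 scale, and with quantile normalization 1683 rose and 1643 fell. Fewer passed without DKO replicate 2 (557 and 953), DKO replicate 1 (694 and 1292) or WT replicate 2 (723 and 1039).

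**Figure D2:**
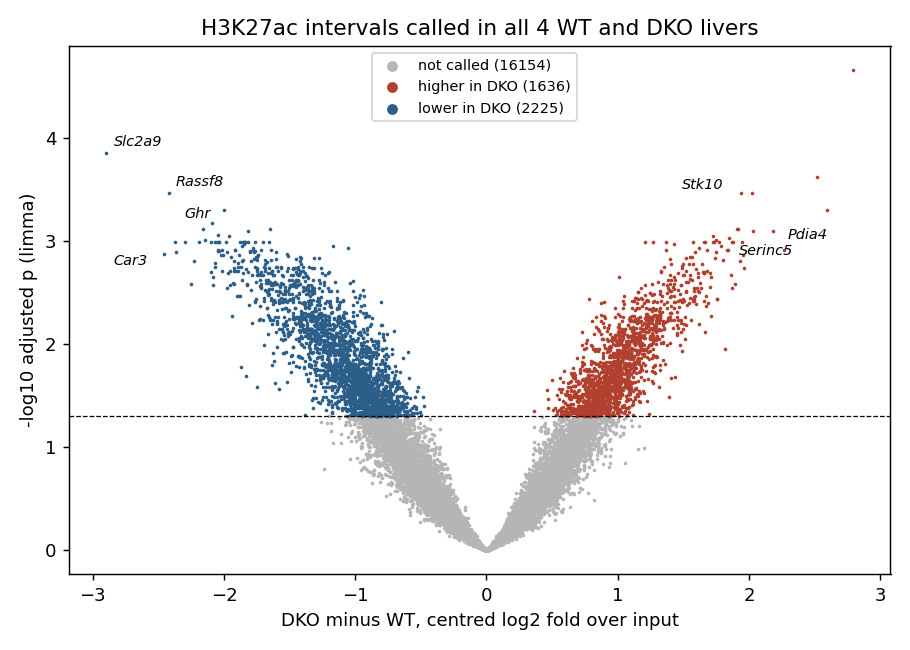
Centred log2 difference in H3K27ac fold, DKO minus WT, of the 20015 intervals with a peak in all 4 livers (x axis), against -log10 of the limma adjusted p (y axis), with the threshold of 0.05 as a dashed line. The 2225 falls reach -2.89 at Slc2a9, and the 4 unlabelled points farthest to the right are intervals over 10000 bases from a gene.

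The 12 largest falls within 10000 bases of a gene began with Slc2a9, Car3 and Rassf8. In Slc2a9, a urate transporter, an interval inside the gene (chr5:38488771-38491968) had folds of 18.7 and 29.8 in WT against 3.18 and 4.72 in DKO livers (-2.89 ± 0.25 on the log2 scale, SE, limma adjusted p = 0.000141). In the single knockouts its folds were 15.1 and 15.3 in Cpt2 KO and 17.6 and 20.4 in Ppara KO, so no liver but the DKO livers was under 15. In Car3, a carbonic anhydrase abundant in male liver, chr3:14860324-14870198 had folds of 31.3 and 27.4 in WT against 5.33 and 7.91 in DKO (-2.46 ± 0.35, adjusted p = 0.00133). The single knockouts were low there as well, with 7.67 and 12.9 in Cpt2 KO and 6.5 and 13.8 in Ppara KO. Where the peaks in the Car3 interval were averaged, the difference was -0.94 and the call ended (adjusted p = 0.0557). In Rassf8, which encodes a protein with a Ras association domain, chr6:145754466-145765450 had folds of 22.5 and 23.1 in WT against 4.7 and 5.75 in DKO (-2.42 ± 0.25, adjusted p = 0.000341). H3K4me1 went the same way at that interval, with folds of 21.7 and 23.3 in WT against 11.7 and 11.4 in DKO.

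Start sites were among these falls. The start of Ghr, the growth hormone receptor (chr15:3581362-3582703), had folds of 22.4 and 24.6 in WT against 6.8 and 6.0 in DKO livers (-2.16 ± 0.25, limma adjusted p = 0.000758). Its folds in the single knockouts, from 10.6 to 14.6, lay between those of WT and DKO. The start of Lin7a, a scaffold protein of cell junctions (chr10:107271289-107274191), had folds of 16.8 and 21.1 in WT against 5.1 and 3.86 in DKO (-2.37 ± 0.30, adjusted p = 0.00103). The start of Zfp292, a zinc finger gene (chr4:34882344-34883440), had folds of 16.3 and 30.0 in WT against 6.08 and 5.71 in DKO (-2.19 ± 0.28, adjusted p = 0.00103). WT and DKO livers were apart at each of these starts, which is part of how the largest falls were chosen. Intervals inside Tent4b, a noncanonical poly(A) polymerase (-2.30), Wwc1, a regulator of Hippo signalling (-2.25), Proz, the coagulation protein Z (-2.23), and Pard3, a polarity protein (-2.10), fell by similar amounts, with adjusted p from 0.00103 to 0.00259. The start of Gm51999 fell by 2.37.

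The largest rises started from low WT folds. Distances to a gene are counted from the middle of an interval. An interval 7445 bases from Pdia4, a disulfide isomerase of the endoplasmic reticulum (chr6:47788076-47789317), had folds of 6.0 and 3.91 in WT against 25.9 and 27.8 in DKO livers (2.18 ± 0.26, limma adjusted p = 0.000805). H3K4me1 was called there in both DKO livers (6.5 and 8.55) and in neither WT liver. Inside Serinc5, a membrane protein of the serine incorporator family (chr13:92661641-92663618), folds were 5.17 and 6.17 in WT and 22.3 and 35.5 in DKO (2.03 ± 0.24, adjusted p = 0.000805). Inside Acmsd, which diverts tryptophan breakdown away from NAD synthesis (chr1:127749686-127752379), folds were 3.62 and 4.39 in WT and 17.0 and 20.7 in DKO (1.95 ± 0.25, adjusted p = 0.00103). At Acmsd the Ppara KO livers (16.2 and 17.8) were near the DKO livers, and the Cpt2 KO livers had 6.38 and no peak. A second Acmsd interval was gained, chr1:127754169-127757140, with 32 and 37.4 in DKO, 22.7 and 24.6 in Ppara KO and no peak in WT or Cpt2 KO livers.

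The kinase gene Stk10 (chr11:32604395-32606251, inside the gene) had folds of 6.14 and 8.52 in WT against 30.7 and 37.3 in DKO livers (1.94 ± 0.19, limma adjusted p = 0.000341). Both single knockouts were already high there, from 22.9 to 29.0. Inside Rad51b, a gene of homologous recombination (chr12:79599997-79601127), folds were 5.03 and 5.75 in WT and 22.2 and 27.6 in DKO (1.92 ± 0.22, adjusted p = 0.000758). At both genes every knockout liver lay above every WT liver. Intervals in or near 2610001J05Rik (1.91), Ercc3, a helicase of transcription and repair (1.89), Cplane2, a gene of cilium formation (1.87), Ccdc172 (1.86), Smg1, a kinase of nonsense-mediated decay (1.85), Tpr, a nuclear pore protein (1.83), and P2rx7, an ATP-gated channel (1.80), rose with adjusted p from 0.000758 to 0.00283. With averaged peaks the P2rx7 call ended (1.34, limma adjusted p = 0.0777), and without WT replicate 1 the Cplane2 difference was 1.24. Larger rises lay far from any protein-coding gene, and these were chosen after their values were seen. The largest, chr6:70812513-70815280, lay 21721 bases from Rpia and had folds of 3.78 and 4.62 in WT against 35.2 and 35.4 in DKO (2.79 ± 0.20, adjusted p = 2.18e-05). The Rpia difference was 1.21 with an adjusted p of 0.0543 where the peaks in the interval were averaged, and adjusted p ran from 3.58e-07 to 0.316 over all alternatives. A pair of intervals 83091 and 74495 bases from Btc rose by 2.59 and 2.51.

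**Figure D3:**
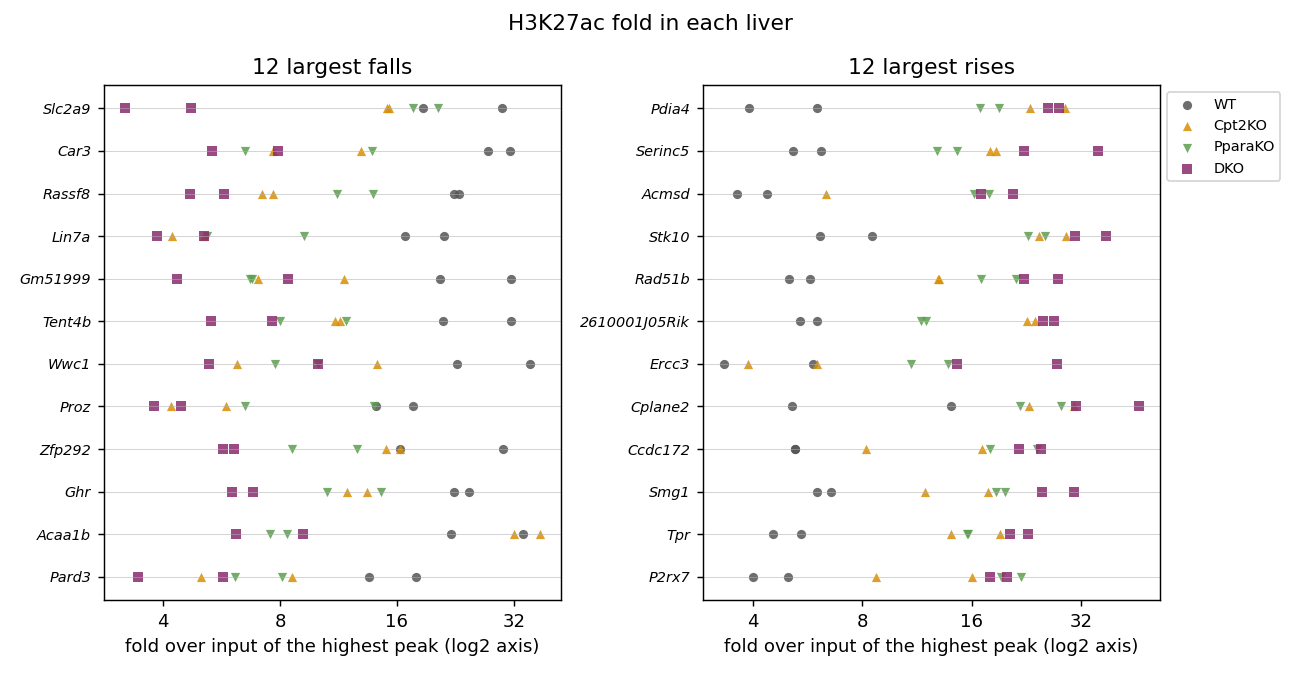
H3K27ac fold over input (log2 axis) of the highest peak in each liver, 1 row per interval, for the 12 largest falls (left) and the 12 largest rises (right) within 10000 bases of a gene; circles are WT, triangles pointing up Cpt2 KO, triangles pointing down Ppara KO and squares DKO livers. WT and DKO livers do not overlap in any row, which is part of how the rows were chosen, and among the falls Slc2a9 is the row where Cpt2 KO and Ppara KO livers all stay above 15.

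The gained intervals were 14.3% of the 58009 intervals with a peak in any of the 4 livers, and the lost intervals were 9.07%. They were chosen by the presence of peaks, so their folds are a description. The mean fold over the DKO livers in the gained intervals had a median of 7.25 and reached 39.2, and the mean fold over the WT livers in the lost intervals had a median of 6.24 and reached 22.8. A mean fold of at least 10 was found in 1382 gained (16.7%) and 317 lost intervals (6.03%). A gene start lay in 4.01% of the gained and 2.95% of the lost intervals, against 14.4% of all 58009. The set of starts held none on chromosome 18 and lacked some others, that of Decr1 among them. These shares are therefore too low by an unknown amount. Of the lost intervals 75% had their middle inside a protein-coding gene body, against 51.5% of the gained and 66.4% of all. The number of lost intervals was 9792 without WT replicate 1 and 9955 without WT replicate 2, and the number of gained intervals was 13839 without DKO replicate 1, since fewer libraries then set the rule.

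The strongest gained intervals lay near genes of several kinds. The strongest near a gene held the starts of Pcbp1 and 1600020E01Rik. Pcbp1 encodes an RNA-binding protein. This interval, chr6:86526123-86528274, had folds of 34.8 and 43.7 in DKO livers. All 4 single-knockout livers had peaks there, from 28.5 to 35.2, and only the WT livers had none. Intervals near Exd2, an exonuclease (chr12:80503505-80506080; 34.5 and 42.2 in DKO), inside Cadps2, a gene of vesicle release (chr6:23387731-23389112; 32.5 and 23.7), and near Wnt4, a Wnt ligand (chr4:137305910-137308698; 24.6 and 31.2), followed. H3K4me1 was called in both DKO livers at Exd2 (15.7 and 18.3) and Cadps2 (15.3 and 12.7) and in neither WT liver. Further strong gained intervals lay inside Cped1 (22.4 and 31.8) and Cables1 (24.9 and 28.3) and at the start of Ccdc120 (19 and 34.2).

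Some of the strongest lost intervals lay at or near Acot3, Prox2, Elmod3 and Saa1. The interval of Acot3, an acyl-CoA thioesterase of peroxisomes (chr12:84049892-84054445), had unequal WT folds of 9.5 and 34.5, peaks of 12.9 and 10.1 in Cpt2 KO and none in Ppara KO livers. Inside Prox2 (chr12:85104148-85106052) the WT folds were 19.5 and 21.4, the Cpt2 KO folds 36.5 and 37.7, and neither Ppara KO liver had a peak. Inside Elmod3 (chr6:72566248-72573752) the WT folds were 20.6 and 20.0, the Cpt2 KO folds 41.8 and 25.1, and the Ppara KO folds 8.1 and 6.67. At Prox2 and Elmod3 every Cpt2 KO fold was above every WT fold, and no DKO liver had a peak. Intervals near Saa1, an acute phase protein (26.8 and 17.2 in WT), near Mrpl14, a mitochondrial ribosomal protein (20.1 and 25), inside Pkdcc, a secreted kinase (16.6 and 24.9), and at the start of Mmp15, a membrane-bound matrix metalloproteinase (17.5 and 21.7), were lost too.

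Some genes collected many changed intervals. Of 12934 genes nearest to an interval, 4217 (32.6%) had at least 1 gained and 2721 (21.0%) at least 1 lost interval, and 874 had both. Most gained intervals were assigned to Rad51b (26 of its 67), Ets1, a transcription factor of blood and endothelial cells (19 of 66), Myc, a transcription factor of growth (16 of 51), Sema6d, a semaphorin (16 of 26), and Asap1, a regulator of the cytoskeleton (15 of 37). These 5 genes had at most 1 lost interval each. Most lost intervals were assigned to Nfix, a nuclear factor I gene (16 of 38), Rreb1, a zinc finger factor (14 of 75), Septin9 (14 of 46), Daam1, a formin of Wnt signalling (13 of 53), and Ptprf, a receptor phosphatase (13 of 27). Those 5 had at most 2 gained intervals each. Genes with long bodies or wide surroundings can collect more intervals, and Rad51b and Sema6d span 550979 and 577847 bases.

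Markers of macrophages, stellate cells and endothelium had more peaks in DKO than in WT livers, and in the Cpt2 KO livers as well. Intervals of 16 marker genes of Kupffer cells and macrophages held a peak 11 and 14 times in the WT and 52 and 58 times in the DKO livers, and their strongest folds summed to 40.8 and 40.5 in WT and to 112 and 148 in DKO. Gained intervals numbered 32 and lost ones 1, with Cd163 (8), Clec4f (5), Cd9 (5), Adgre1 (3) and Csf1r (3) among the gained. Intervals of 13 stellate cell and fibroblast markers held a peak 13 and 12 times in WT and 39 and 50 times in DKO, their strongest folds summed to 37.9 and 43.0 in WT and to 77.1 and 93.5 in DKO, and 23 were gained, 8 of them at Dcn, against 1 lost. Of 12 endothelial markers all held a peak in each of the 4 libraries, with 78 and 65 peaks in WT and 115 and 104 in DKO, summed folds of 149 and 155 in WT against 257 and 253 in DKO, and 29 gained against 3 lost intervals. In Cpt2 KO livers the summed folds were 104 and 103 for the macrophage, 87.6 and 76.4 for the stellate cell and 260.0 and 227 for the endothelial markers. In Ppara KO livers they were 56.2 and 72.5, 50.4 and 52.0, and 181 and 171, between those of WT and Cpt2 KO livers. All these sums are of uncentred folds. The median fold of the shared intervals was itself higher in DKO (11.5 and 13.2) than in WT livers (9.45 and 10.8). A sum also grows with the number of genes that hold a peak, which for the macrophage markers was 5 and 5 in WT and 11 and 11 in DKO livers. A gained interval was assigned to 10 of the 16 macrophage, 9 of the 13 stellate cell and 8 of the 12 endothelial markers. A lost interval was assigned to 1, 1 and 2 of them. Over the 12934 genes nearest to an interval 32.6% had a gained and 21.0% a lost interval.

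Several defining markers were assigned no peak in any of the 4 libraries, though a peak at them can be counted for a neighbouring gene. These were Marco, Gpnmb, Trem2 and Ly6c2 among the macrophage markers, Col1a1, Col3a1 and Lum among the fibroblast markers, and Krt7, Krt19, Cftr and Cldn7 among those of cholangiocytes. Of 13 lymphocyte and granulocyte markers 9 were assigned none, Cd3e and S100a8 included. The summed folds of the rest were 32.1 and 29.1 in WT and 30.5 and 61.3 in DKO, and the 8 gained intervals were all at Ptprc. Cholangiocyte markers summed to 64.3 and 76.1 in WT and 59.5 and 78.5 in DKO. Hepatocyte markers summed, again without centring, to 180.0 and 194 in WT and to 210.0 and 255 in DKO, with 7 gained and 11 lost intervals. Of 9 hepatocyte genes 2 rose and 2 fell. In whole liver, more cells of a type and more signal per cell cannot be told apart. The part of other cell types in the rest of the gained intervals was not tested.

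Few of these markers had shared intervals that passed. None of the 4 macrophage genes with a shared interval passed (Clec4f 0.80, adjusted p = 0.104, and Csf1r 0.73, adjusted p = 0.0622; limma), and neither did the 3 stellate cell genes (Des -0.60 and Dcn 0.27) or the 1 lymphocyte gene, Klrb1c (0.05). Of 12 endothelial genes 2 rose and 1 fell. Pecam1, an adhesion molecule of endothelium, rose (folds of 18.7 and 13.6 in WT against 28.4 and 41.1 in DKO, 0.81), as did Tek, the angiopoietin receptor (0.87), and Lyve1, a sinusoidal hyaluronan receptor, fell (-0.94). The Pecam1 call was lost without WT replicate 2 (adjusted p = 0.188) or DKO replicate 2 (0.174), that at Tek without any 1 of the 4 WT and DKO livers (up to 0.181 without DKO replicate 1) and that at Lyve1 without WT replicate 1 (0.145), DKO replicate 1 (0.0986) or DKO replicate 2 (0.122). Over all alternatives adjusted p ran from 0.00491 to 0.973 at Pecam1, 0.00892 to 0.524 at Tek and 0.0287 to 0.696 at Lyve1.

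For each gene list that follows, a gene was represented by its strongest shared interval, the one with the highest mean centred log2 fold over the 4 libraries. Over all 9817 genes with a shared interval, 716 rose (7.29%) and 1114 fell (11.3%), with a median difference of -0.06 on the log2 scale. A list's counts and median are given beside these, with no test of the list. Of all 58009 intervals 14.3% were gained and 9.07% lost, and of the 12934 genes nearest to an interval 32.6% had a gained and 21.0% a lost interval. The total number of intervals of a list is not given, so its gained and lost counts have no such share. Genes with many intervals weigh most in those counts. Many of the calls in the lists rest on single livers. Of 33 called list genes that are given below by their difference alone, 30 lost the call without at least 1 library, and the 3 that did not were Abcd3, Fitm2 and Proc. With averaged peaks 28 of the 33 lost the call or turned, and without centring 22 did. For these 33 the highest adjusted p without 1 library is given beside the difference.

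Genes of peroxisomal fatty acid oxidation fell most often among the lists of lipid metabolism. Of 18 measured genes 9 fell and 0 rose, with a median of -0.55, and 35 intervals were lost against 8 gained. The lost intervals were at 13 and the gained at 6 of the 21 genes of the list. Acaa1b, the peroxisomal thiolase whose promoter is printed above (chr9:119151863-119160654), had folds of 22.0 and 33.8 in WT against 9.18 and 6.17 in DKO livers (-2.14 ± 0.26, limma adjusted p = 0.000978). Hsd17b4, the multifunctional protein of the pathway, had folds of 25.5 and 28.7 in WT against 13.5 and 11.2 in DKO (-1.42 ± 0.21, adjusted p = 0.00142). Eci2, an enoyl-CoA isomerase (chr13:34990678-34996469), had 21.9 and 27.3 in WT and 11.2 and 15.4 in DKO (-1.18 ± 0.22, adjusted p = 0.00433). In all 3 the WT and DKO livers were apart, the Ppara KO livers lay from 7.13 to 14.0, beside the DKO livers, and the Cpt2 KO livers lay from 21.2 to 46.3, near or above WT. With averaged peaks the calls at Hsd17b4 (-0.85, adjusted p = 0.1) and Eci2 (-1.09, adjusted p = 0.0707) ended.

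The other falls in this list were Acot4, a peroxisomal thioesterase (-1.08), Abcd3, a peroxisomal acyl-CoA transporter (-1.05, highest adjusted p without 1 library 0.0108, given likewise below), Ech1 (-0.91 and 0.117), Acsl1, the main long-chain acyl-CoA synthetase of liver (-0.77 and 0.155), Acaa1a (-0.75 and 0.175) and Crot, which forms medium-chain acyl-carnitines (-0.73 and 0.193). Averaging the peaks in the interval turned Abcd3 to 0.97. The Acot4 call was lost without WT replicate 2 (adjusted p = 0.084) or DKO replicate 2 (0.0669), with adjusted p from 0.0085 to 0.726 over all alternatives. Acsl1 had 11 lost intervals and Crot 6, with none gained at either. The strongest shared intervals of Ehhadh, the bifunctional enzyme of the pathway (-0.04), and Pex11a, a gene of peroxisome division (-0.37), did not pass. Without centring 4 genes of the list fell and 2 rose. Acaa1a and Acaa1b are close paralogs, as are Acot1, Acot3 and Acot4, so reads could be shared between them.

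Of 15 mitochondrial fatty acid oxidation genes 4 fell and 1 rose, with a median of -0.16. Decr1, the dienoyl-CoA reductase for unsaturated fatty acids (chr4:15936372-15945945), had folds of 19.2 and 24.6 in WT against 8.05 and 10.6 in DKO livers (-1.52 ± 0.22, limma adjusted p = 0.00133). The start of Acads, the short-chain acyl-CoA dehydrogenase (chr5:115118400-115119790), had 18.8 and 30.7 in WT and 10.2 and 10.3 in DKO (-1.51 ± 0.23, adjusted p = 0.00181). The start of Slc25a20, the carnitine-acylcarnitine carrier that works beside Cpt2 (chr9:108661991-108664295), had 14.6 and 21.7 in WT and 7.71 and 9.0 in DKO (-1.38 ± 0.28, adjusted p = 0.00555). At these 3 genes DKO and WT livers did not overlap, and the Ppara KO livers lay from 6.29 to 11.8. With averaged peaks the Decr1 call ended (-1.10, adjusted p = 0.0698). Eci1 fell (-0.99), a call lost without WT replicate 2 (adjusted p = 0.059) or DKO replicate 2 (0.0673), with adjusted p from 0.0048 to 0.935 over all alternatives. Crat, the carnitine acetyltransferase, rose (0.65, highest adjusted p without 1 library 0.137), and turned to -0.32 where the peaks were averaged. The strongest shared intervals of Cpt1a, the rate-limiting enzyme of entry (-0.16), Acadm (0.73, adjusted p = 0.104), Acadl (-0.09) and Hadha (0.27) did not pass.

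Of 10 genes of microsomal omega-oxidation and acyl-CoA hydrolysis 4 fell and 0 rose, with a median of -0.62. The start of Acot1, a cytosolic thioesterase (chr12:84008230-84011627), had folds of 14.5 and 19.8 in WT against 6.65 and 6.74 in DKO livers (-1.63 ± 0.25, limma adjusted p = 0.00214). Near Cyp4a10, a fatty acid omega-hydroxylase (chr4:115513203-115522449), folds were 12.8 and 19 in WT and 7.0 and 6.43 in DKO (-1.5 ± 0.27, adjusted p = 0.00329). The intervals of Cyp4a32 (-1.47, adjusted p = 0.00272) and Cyp4a14 (-1.22, adjusted p = 0.00584) fell as well. WT and DKO livers were apart at all 4. The Cpt2 KO livers were higher than WT at Cyp4a14 (30.6 and 26.7 against 9.25 and 11.6) and at Cyp4a32 (48.3 and 37.7 against 18.5 and 19.4), and neither Ppara KO liver had a peak at Cyp4a14. With averaged peaks the Cyp4a14 call ended (-0.58, adjusted p = 0.37), and the Cyp4a10 difference was -0.94. The Cyp4a genes are near-identical neighbours, so reads may have been split between them.

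Among 11 genes of ketone body synthesis and fasting hepatokines 1 fell and 0 rose, with a median of -0.01. Acat1, the mitochondrial acetoacetyl-CoA thiolase, fell (folds of 21.0 and 26.9 in WT against 16.6 and 17.6 in DKO, -0.76), and its limma call was lost without WT replicate 2 (adjusted p = 0.0861), DKO replicate 1 (0.0616) or DKO replicate 2 (0.109), with adjusted p from 0.0075 to 0.747 over all alternatives. Fgf21, a fasting hormone of the liver (0.19), Angptl4, an inhibitor of lipoprotein lipase (-0.44), and Gdf15, a stress hormone (0.07), did not pass, and Fgf21 had 2 gained and 2 lost intervals.

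Genes of lipid uptake, activation and droplets fell in 9 of 26 cases and rose in 1, with a median of -0.32. Mfsd2a, a transporter of lysophospholipids (chr4:122956701-122961941, the gene start), had folds of 24.4 and 26.4 in WT against 15.4 and 4.89 in DKO livers (-1.83 ± 0.49, limma adjusted p = 0.0203), and the DKO livers differed from each other there. Mgll, the monoglyceride lipase (chr6:88723830-88736079), had 33.5 and 33.8 in WT and 14.7 and 22.1 in DKO (-1.19 ± 0.21, adjusted p = 0.00307), with 6 lost intervals besides. Slc27a1, a fatty acid transport protein, had 16.3 and 19.4 in WT and 9.35 and 11.3 in DKO (-1.07 ± 0.22, adjusted p = 0.00641). Cidec, a lipid droplet fusion protein (-1.10), Fitm2, a gene of droplet budding (-1.06 and 0.0457), Plin5, which ties droplets to mitochondria (-0.96 and 0.0697), Vnn3 (-0.91 and 0.165), Slc27a2 (-0.90 and 0.108) and Fabp1, the liver fatty acid binding protein (-0.84 and 0.172), fell as well, and Hilpda, an inhibitor of droplet lipolysis, rose (0.79 and 0.17). The Mgll difference was -2.19 with averaged peaks, and the Slc27a1 call ended without centring (-0.79, adjusted p = 0.0501). The Mfsd2a call was lost without WT replicate 1 (adjusted p = 0.0832), WT replicate 2 (0.0986) or DKO replicate 2 (0.181), and the Cidec call without DKO replicate 1 (0.0563), with adjusted p over all alternatives from 0.00326 to 0.872 and from 0.00639 to 0.51. Without centring 3 genes of the list fell and 3 rose.

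Of 22 genes of fatty acid and triglyceride synthesis 6 fell and 1 rose, with a median of -0.11, and 60 intervals were lost against 15 gained. Fasn, the fatty acid synthase (chr11:120819137-120826754, the gene start), had folds of 20.3 and 32.2 in WT against 12.2 and 12.5 in DKO livers (-1.34 ± 0.30, limma adjusted p = 0.00843). Gpam, which starts glycerolipid synthesis, had 22.3 and 19.8 in WT and 8.33 and 13.7 in DKO (-1.26 ± 0.26, adjusted p = 0.00652). Mlxipl, the carbohydrate response factor (-0.97 and 0.269), Scd1, the stearoyl-CoA desaturase (-0.97), Thrsp (-0.93 and 0.21) and Mogat1 (-0.81 and 0.24) fell, and an interval 21325 bases from Fads2, a desaturase of polyunsaturated fatty acids, rose (1.05). At Fasn the Cpt2 KO (8.29 and 11.8) and Ppara KO livers (7.75 and 13.7) were at the level of the DKO livers. Without centring 2 genes of the list fell and 2 rose. The lost intervals were spread over 18 and the gained over 8 of the 25 genes of the list. Among the lost were 7 each at Acly and Lpin1, 6 at Gpam and 5 each at Dgat2, Elovl6 and Fads2. Calls were lost at Fasn without WT replicate 2 (adjusted p = 0.0778), at Gpam without DKO replicate 1 (0.0524), at Fads2 without WT replicate 2 (0.139) or DKO replicate 1 (0.155) and at Scd1 without WT replicate 2 (0.0923), DKO replicate 1 (0.107) or DKO replicate 2 (0.0558). Across the alternatives adjusted p ran from 0.00506 to 0.698 at Fasn, 0.00552 to 0.438 at Gpam, 0.00298 to 0.804 at Fads2 and 0.0203 to 0.703 at Scd1.

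Cholesterol genes moved both ways, with 4 falls and 2 rises among 23. Inside Fdft1, the squalene synthase (chr14:63159156-63166039), folds were 22.0 and 29.9 in WT and 7.71 and 13.9 in DKO livers (-1.60 ± 0.24, limma adjusted p = 0.00178). Inside Scap, the sterol sensor that escorts Srebf proteins (chr9:110342677-110347459), they were 7.71 and 7.5 in WT and 24.4 and 20.9 in DKO (1.28 ± 0.25, adjusted p = 0.00468). Abca1, the cholesterol exporter (-0.96), Hmgcs1 (-0.75 and 0.111) and Srebf2 (-0.75 and 0.232, but 0.40 where the peaks were averaged) fell, and an interval 11437 bases from Fdps, the farnesyl diphosphate synthase, rose (1.03). Of 21 bile acid genes 2 rose and 1 fell. An interval 17867 bases from Akr1d1, the bile acid reductase (chr6:37592221-37593356), had 9.29 and 9.32 in WT and 24.2 and 28.3 in DKO (1.21 ± 0.21, adjusted p = 0.00267), Abcc4, an export pump, rose (0.95), and an interval near Cyp8b1, the sterol 12-hydroxylase, fell (-1.27). Nr1h4, the bile acid receptor, had 12 lost intervals and Cyp7a1, the rate-limiting enzyme of bile acid synthesis, had 4, with none gained.

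Of these, calls were lost at Abca1 without WT replicate 2 (limma adjusted p = 0.0884) or DKO replicate 1 (0.083) and at Fdps without DKO replicate 2 (0.0602). At Abcc4 the call was lost without DKO replicate 1 (0.0519) or DKO replicate 2 (0.0822), and at Cyp8b1 without WT replicate 2 (0.138), DKO replicate 1 (0.0672) or DKO replicate 2 (0.0654). With every alternative counted, adjusted p ran from 0.00849 to 0.812 at Abca1, 0.00198 to 0.638 at Fdps, 0.00421 to 0.575 at Abcc4 and 0.00566 to 0.671 at Cyp8b1.

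Among 29 genes of gluconeogenesis and fasting regulation 4 fell and 1 rose. Over the 30 genes of the list 53 intervals were lost, at 17 genes, and 42 were gained, at 14. An interval assigned to Ppargc1a, the coactivator of fasting (chr5:51285610-51291353, 165768 bases away), had folds of 10.3 and 9.39 in WT against 27.9 and 34.5 in DKO livers (1.37 ± 0.23, limma adjusted p = 0.00266), and 7 intervals assigned to this gene were gained. The interval that rose holds the start of another gene, Gm29924. With only intervals within 1000 bases of a gene, 0 of 26 genes of the list rose and 3 fell. Irs2, an adaptor of the insulin receptor, fell (-0.75, folds of 28.9 and 43.8 in WT against 25.5 and 26.1 in DKO), as did Fkbp5, a target of the glucocorticoid receptor (-0.79), Foxo3, a factor restrained by insulin (-0.73 and 0.229), and an interval near Pklr, the liver pyruvate kinase (-0.84). Insr, the insulin receptor, had 8 lost and 4 gained intervals, and G6pc, the glucose-6-phosphatase, and Pcx, the pyruvate carboxylase, had 5 lost each and none gained. Calls were lost at Irs2 without WT replicate 2 (adjusted p = 0.109) or DKO replicate 2 (0.0993) and at Fkbp5 without WT replicate 1 (0.062), WT replicate 2 (0.084) or DKO replicate 1 (0.174). The Pklr call was lost without any 1 of the 8 libraries of the fit (adjusted p from 0.0512 to 0.151). Over all alternatives adjusted p ran from 0.0118 to 0.872 at Irs2, 0.0159 to 0.447 at Fkbp5 and 0.0457 to 0.732 at Pklr. Without centring none of the list fell and 2 rose.

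Of 13 genes of the integrated stress response and amino acid synthesis 3 rose and 0 fell. These were the amino acid transporter subunits Slc7a5 (folds of 13.9 and 8.54 in WT against 27.2 and 25.2 in DKO, 0.98) and Slc3a2 (6.07 and 9.31 in WT, 15.3 and 20.7 in DKO, 0.96) and the pseudokinase Trib3 (8.0 and 9.38 in WT, 15.6 and 21.4 in DKO, 0.79). WT and DKO livers did not overlap at any of the 3. The limma calls were lost at Slc7a5 without WT replicate 2 (adjusted p = 0.131) or DKO replicate 1 (0.115) and at Slc3a2 without WT replicate 1 (0.0906), DKO replicate 1 (0.0532) or DKO replicate 2 (0.13). The Trib3 call was lost without WT replicate 1 (0.0699), WT replicate 2 (0.0839), DKO replicate 1 (0.0665) or DKO replicate 2 (0.19). Among the alternatives adjusted p ran from 0.00338 to 0.955, 0.00692 to 0.617 and 0.012 to 0.729 at these genes. Of 20 targets of Nfe2l2, the antioxidant factor, 1 rose and 1 fell: the interval at the start of Nqo1, a quinone reductase, had folds of 5.0 and 6.02 in WT against 11.6 and 15.3 in DKO (0.99), and that of Gclm, a glutathione synthesis subunit, had 29.3 and 34.1 in WT and 18.0 and 21.1 in DKO (-0.99, adjusted p = 0.00388, and -2.24 with averaged peaks). The Nqo1 call was lost without WT replicate 2 (0.051) or DKO replicate 2 (0.102), with adjusted p from 0.0046 to 0.684 over all alternatives.

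Drug-metabolism genes rose in 4 and fell in 2 of 18 cases. The start of Cyp3a13, a drug-metabolising P450 whose promoter is printed above (chr5:137919513-137923105), had folds of 11.3 and 7.43 in WT against 23.2 and 27.7 in DKO livers (1.18 ± 0.26, limma adjusted p = 0.00839), and H3K4me1 was called there in both DKO livers (8.4 and 12) and in neither WT liver. Cyp2c39 (1.02), Cyp2c55 (0.83 and 0.17) and Cyp17a1, a steroid hydroxylase (0.76 and 0.158), rose. An interval near Cyp1a2, a target of the aryl hydrocarbon receptor (-1.17), and one inside Ahr, that receptor (-0.88), fell. The Cyp3a13 call was lost without WT replicate 2 (0.0592), that at Cyp1a2 without WT replicate 2 (0.079) or DKO replicate 2 (0.0585), that at Ahr without WT replicate 2 (0.0594) or DKO replicate 1 (0.0517) and that at Cyp2c39 without WT replicate 1 (0.204), DKO replicate 1 (0.0737) or DKO replicate 2 (0.144). Across all alternatives adjusted p ran from 0.00171 to 0.999 at Cyp3a13, 0.00839 to 0.809 at Cyp1a2, 0.00507 to 0.791 at Ahr and 0.0092 to 0.39 at Cyp2c39. Cyp2c genes have close paralogs, and reads could be shared between them.

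Transcription factors of hepatocytes fell in 11 of 26 cases and rose in none, with a median of -0.50. In this list 67 intervals were lost, at 20 of the 26 genes, against 25 gained, at 11. The interval of Cebpa, a factor of hepatocyte identity (chr7:35115906-35125046), had folds of 33.8 and 41.5 in WT and 17.4 and 22.4 in DKO livers (-1.21 ± 0.19, limma adjusted p = 0.00203), and H3K4me1 there was 13.4 and 11 in WT and 7.72 and 7.43 in DKO. The interval of Foxa2, a pioneer factor of liver (chr2:148042986-148048023), had 27.6 and 33.4 in WT and 17.4 and 20.7 in DKO (-0.97 ± 0.17, adjusted p = 0.00337). WT and DKO livers were apart at both, and with averaged peaks the Foxa2 call ended (-1.06, adjusted p = 0.106). Rora, a retinoid-related orphan receptor (-1.04), Onecut2 (-0.87), Nr5a2, the liver receptor homolog (-0.79 and 0.0808), and Nr2f2 (-0.77 and 0.197) fell too. So did Prox1 (-0.68 and 0.116) and Foxa1 (-0.67 and 0.113, but 0.70 where the peaks were averaged). The fall counted for Ppara was at an interval outside the gene, before its start (-0.56 and 0.165). The interval with the start of Ppara rose (0.74). Rxra, the partner of Ppara, and Nr5a2 had 8 lost intervals each.

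Without centring 4 of these factors fell and 2 rose. The calls at Rora (adjusted p = 0.0537) and Onecut2 (0.0529) were lost without DKO replicate 2. Over all alternatives limma adjusted p ran from 0.00395 to 0.675 at Rora and 0.00462 to 0.604 at Onecut2. Onecut2 is also on the list of cholangiocyte markers, where Sox9 fell (-1.27, folds of 12.5 and 19.7 in WT against 6.5 and 9.57 in DKO), a call lost without WT replicate 2 (0.0709) or DKO replicate 1 (0.0563), with adjusted p from 0.00849 to 0.646 over all alternatives. Of 14 clock genes 2 fell (none without centring), Hlf, an output factor of the clock (-1.13), and Clock (-0.92). The call at Hlf was lost without WT replicate 2 (0.124) or DKO replicate 1 (0.0761) and that at Clock without WT replicate 2 (0.1), DKO replicate 1 (0.0626) or DKO replicate 2 (0.0579), with adjusted p from 0.012 to 0.775 and from 0.00932 to 0.777 over all alternatives.

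Of 34 acute phase, complement and coagulation genes 7 fell and 2 rose, with a median of -0.27; without centring 3 fell and 4 rose. The start of Fgg, the fibrinogen gamma chain (chr3:83006592-83009868), had folds of 22.1 and 19.8 in WT against 8.65 and 9.63 in DKO livers (-1.48 ± 0.25, limma adjusted p = 0.00238). The start of Serpina1a, an alpha-1 antitrypsin gene with close paralogs (chr12:103858897-103866886), had 22.2 and 35.6 in WT and 11.5 and 14.0 in DKO (-1.43 ± 0.23, adjusted p = 0.00214). Proc, the anticoagulant protein C (-1.08 and 0.0485), F10 (-1.10), C9 (-1.10), Lbp (-0.75 and 0.31) and F2, prothrombin (-0.61 and 0.142), fell, and C8a (0.89 and 0.113) and F12 (0.96 and 0.0598) rose. Saa1 had 6 lost intervals and Fga 4. With averaged peaks the calls at Fgg (-0.78, adjusted p = 0.201) and Serpina1a (-0.61, adjusted p = 0.192) ended. Of 17 apolipoprotein and lipoprotein genes 2 fell and 0 rose, and Scarb1, the receptor for high-density lipoprotein (-0.74), was among the falls.

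Of these, calls were lost at F10 without WT replicate 2 (limma adjusted p = 0.167) or DKO replicate 1 (0.226) and at C9 without WT replicate 1 (0.0572) or DKO replicate 1 (0.0913). The call at Scarb1 was lost without WT replicate 2 (0.208), DKO replicate 1 (0.142) or DKO replicate 2 (0.103). In the set of alternatives adjusted p ran from 0.00981 to 0.51 at F10, 0.0145 to 0.517 at C9 and 0.0206 to 0.997 at Scarb1.

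Genes of the urea cycle and amino acid breakdown moved both ways, with 5 rises and 4 falls among 27. Prodh2, a hydroxyproline dehydrogenase (chr7:30492843-30495611, the gene start), had folds of 29.3 and 28.7 in WT against 9.75 and 9.81 in DKO livers (-1.85 ± 0.23, limma adjusted p = 0.00103). Glud1, the glutamate dehydrogenase, had 21.7 and 27.4 in WT and 9.83 and 13.0 in DKO (-1.40 ± 0.22, adjusted p = 0.00193), and Nags, which makes the activator of Cps1, had 21.6 and 27.7 in WT and 10.3 and 16.2 in DKO (-1.20 ± 0.24, adjusted p = 0.0054). With averaged peaks the Nags difference was -0.19 and the call ended (adjusted p = 0.697). Bckdha, of branched-chain amino acid breakdown, fell as well (-1.18). An interval near Cps1, the first enzyme of the urea cycle (chr1:67111131-67119593), rose from 17.8 and 16.6 in WT to 36.0 and 38.5 in DKO (0.83 ± 0.17, adjusted p = 0.0068, and 1.82 with averaged peaks). Got1, an aspartate aminotransferase (0.77 and 0.223), Sds, the serine dehydratase (0.75 and 0.385), Aass, of lysine breakdown (0.67 and 0.19), and Ass1, the argininosuccinate synthase (0.54), rose too. The Bckdha call was lost without DKO replicate 2 (adjusted p = 0.0979). The Ass1 call was lost without any 1 of 7 libraries, WT replicate 1 being the exception, with adjusted p up to 0.271 without DKO replicate 2. Across the alternatives adjusted p ran from 0.01 to 0.629 at Bckdha and 0.0192 to 0.995 at Ass1. Without centring 11 genes of the list rose and 4 fell.

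Genes of liver damage, fibrosis and proliferation had 46 gained against 4 lost intervals, 16 of the gained at Myc, 7 each at Fos and Col4a1 and 4 each at Jun and Tgfb2. Of the 27 genes of the list 11 had a gained and 3 a lost interval. Over the 12934 genes nearest to an interval the shares were 32.6% and 21.0%. Of 13 measured genes 2 rose and 0 fell. The start of Fos, an immediate early factor (chr12:85472939-85474844), had folds of 18.3 and 16.3 in WT against 31.4 and 39.2 in DKO livers (0.74 ± 0.18, limma adjusted p = 0.0134). The start of Cdkn1a, an inhibitor of the cell cycle (chr17:29093597-29095626), had 11 and 11.7 in WT and 17.7 and 41.9 in DKO (0.97 ± 0.29, adjusted p = 0.0327), and the DKO livers differed from each other there. The Fos call was lost without WT replicate 2 (0.0682) or DKO replicate 2 (0.0949) and that at Cdkn1a without WT replicate 1 (0.0756), WT replicate 2 (0.13) or DKO replicate 2 (0.348), with adjusted p from 0.00482 to 0.888 and from 0.00762 to 0.957 over all alternatives. The macrophage, stellate and endothelial markers described above were gained in the same livers, and their part in this list was not tested. Among liver genes used as a reference, an interval 12527 bases from Alb (0.26) and one 1084 bases from Actb (0.15) did not pass. With averaged peaks the Actb difference was -1.53 and passed (limma adjusted p = 0.0199).

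**Figure D4:**
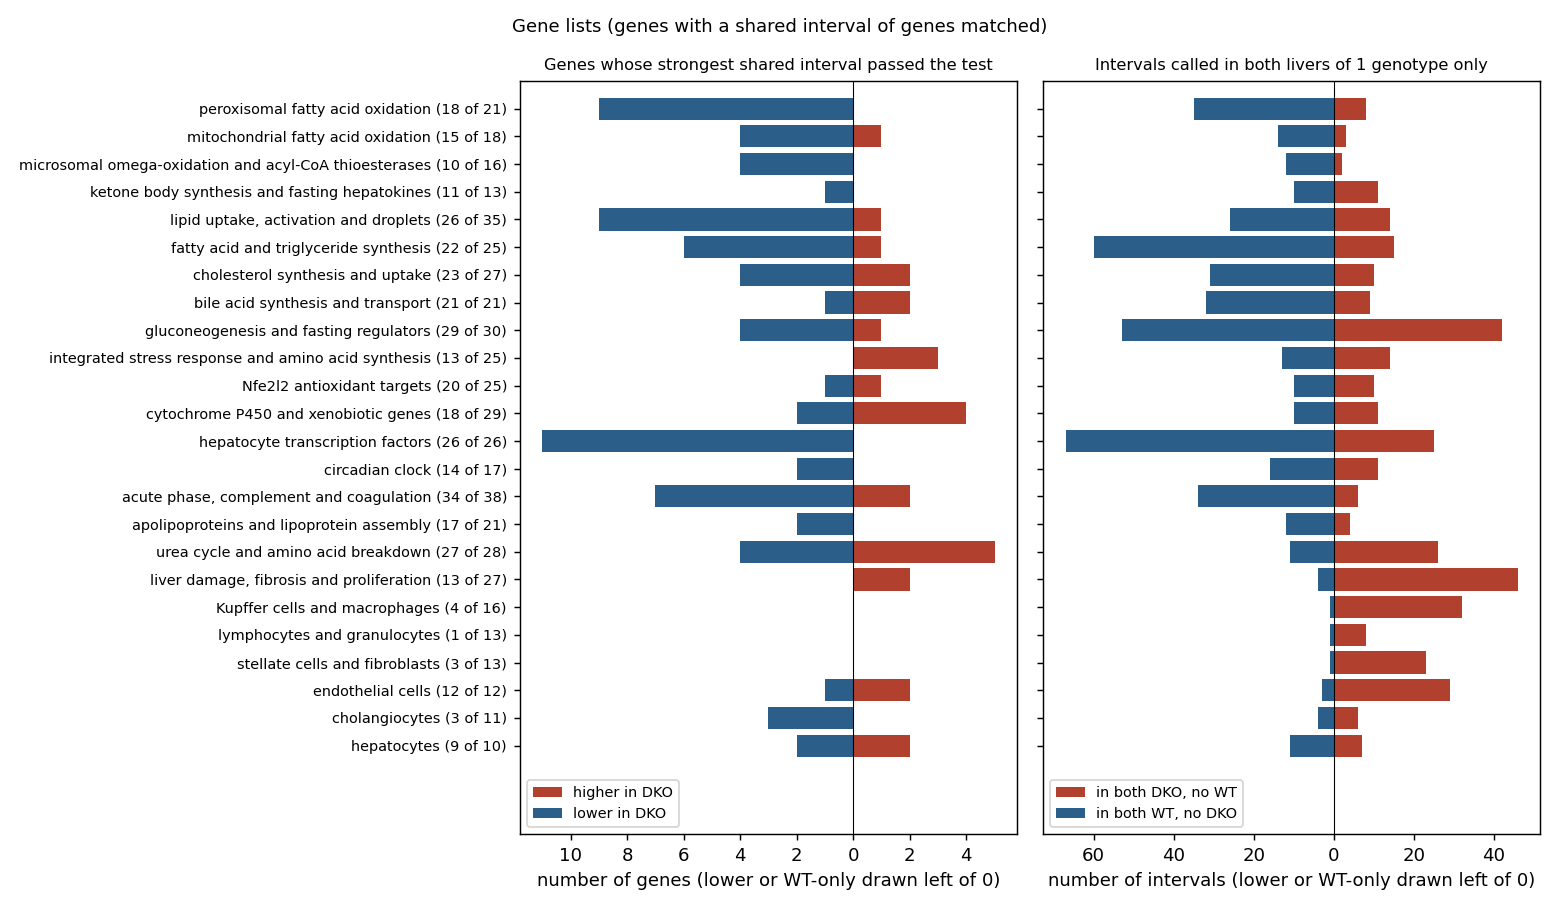
For each gene list, the number of genes whose strongest shared interval rose (right of 0) or fell (left of 0) in DKO livers (left panel), and the number of gained (right of 0) and lost (left of 0) intervals assigned to its genes (right panel); numbers in brackets are genes with a shared interval of genes matched. The hepatocyte transcription factors have 11 falls and 67 lost intervals, and the macrophage list has 32 gained intervals and 1 lost.

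The single knockouts share the WT livers with this comparison, so only their levels are given. In the 1636 intervals that rose, the median centred log2 fold was -0.35 and -0.55 in WT livers and 0.60 and 0.64 in DKO livers. Cpt2 KO livers had 0.37 and 0.29 and Ppara KO livers 0.25 and 0.26. In the 2225 that fell it was 0.69 and 0.77 in WT livers and -0.43 and -0.50 in DKO livers. Cpt2 KO livers had -0.04 and 0.05 and Ppara KO livers 0.01 and 0.03. In both sets the 4 single-knockout livers lay between the WT and the DKO livers, and a choice by the difference of WT and DKO favours such an order. Of the 8288 gained intervals 49.5% held a peak in both Cpt2 KO livers, 30.0% in both Ppara KO livers, and 17.9% (1485) in none of the 4. Of the 5259 lost intervals 67.8% had no peak in Cpt2 KO and 56.6% none in Ppara KO livers, against 37.7% and 39.9% of all 58009, and 41.2% (2167) had a peak in none of the 4. Over all 58009 intervals 50.4% held a peak in both Cpt2 KO and 46.1% in both Ppara KO livers, and 28.1% in none of the 4.

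**Figure D5:**
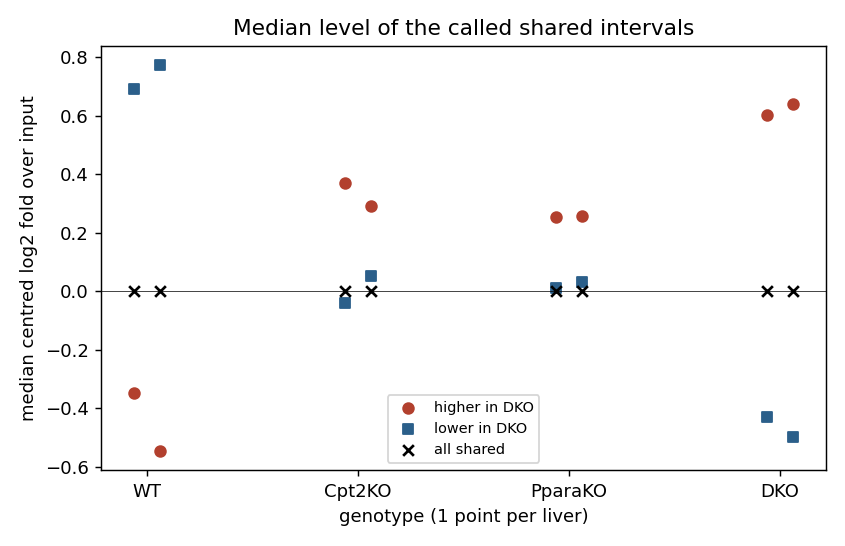
Median centred log2 fold over input (y axis) in each liver (1 point per liver, by genotype on the x axis) of the shared intervals that rose in DKO, those that fell and all shared intervals. Cpt2 KO and Ppara KO livers lie between WT and DKO livers in both called sets, for example at 0.25 to 0.37 in the intervals that rose.

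H3K4me1, which marks enhancers whether active or not, was measured in other libraries of the same genotypes and did not enter the choice of intervals. In the shared intervals that rose, and where all 4 H3K4me1 libraries held a peak (771), the median log2 difference of H3K4me1 was 0.52, and both DKO values lay above both WT values in 66.0%, against 30.0% of all shared intervals. In the intervals that fell (1568 with H3K4me1 in all 4) the median was -0.25, and both DKO values lay below both WT values in 46.7%, against 27.2% of all shared intervals. Of the gained intervals 20.5% also held an H3K4me1 peak in both DKO and in neither WT liver, against 8.80% of all 58009, and 50.4% held no H3K4me1 peak in any of the 4 libraries, against 27.6%. Of the lost intervals 82.8% held H3K4me1 in both WT livers, against 46.6% of all 58009, and 38.8% in both DKO livers, against 46.1%. In both WT and neither DKO liver it was held by 34.7% of the lost intervals, against 9.49% of all. The smallest H3K4me1 peak widths, 199 and 199 bases in WT and 210 and 221 in DKO, also went with genotype, so the libraries of this mark share that property with those of H3K27ac.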

How the data were processed

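H3K27ac peak lists of 8 liver libraries (2 each of WT, Cpt2 KO, Ppara KO and DKO) and the deposited consensus intervals were used, with the H3K4me1 peak lists of WT and DKO livers as a second readout. BWA, MACS2 2.1.0 and mm10 are named in the submitters' processing notes. Peaks were called by the authors in each library separately, with a pooled input named in the labels. In each deposited list the values used were the peak's position in bases, its fold (a ratio of ChIP signal to local input background) and its -log10 q. The calling threshold, duplicate handling and depth scaling are not given in the sources used here, and the read depth of each library is unknown, so no counting error can be given. Peak names in 1 Ppara KO list carry another build word than the rest.

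A peak was assigned to a consensus interval where they overlapped by at least 1 base, and the interval took the highest fold. Log2 folds were centred on the library median over the 20015 shared intervals and fitted by genotype over all 8 libraries with limma 3.58.1 in R 4.3.3, where Cpt2 KO and Ppara KO livers help to estimate the spread and missing peaks drop out of the fit. P-values were adjusted by Benjamini-Hochberg over all shared intervals, with a threshold of 0.05. The fit was tested on simulated data. Intervals were assigned to the nearest of 21896 protein-coding genes of the RefSeq annotation of GRCm38.p6. Promoter sequences and gene starts come from the same annotation. The set of starts was incomplete: it held none on chromosome 18 and lacked that of Decr1, for example.

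Named genes were Cpt2 and Ppara, the 12 largest rises and 12 largest falls without overlap within 10000 bases of a gene, the 8 strongest gained and 8 strongest lost intervals, the 5 genes with most of each, up to 4 genes per list, and Alb and Actb. Other called list genes are named in addition. Some genes that these rules name are counted but not reported here. Of 493 gene names on 24 lists all but H19 were matched to a protein-coding gene, and older and newer names of 1 gene counted once. The intervals, rules and lists were chosen with earlier results of these data known. Alternatives covered the centring, the libraries, the intervals tested, a replicate block, the smallest peak width, a -log10 q of at least 10, the overlap, the averaging of peaks and leaving out each library.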

Additional observations from a re-analysis of the deposited data

How the results depend on the processing

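The numbers of shared intervals that rose and fell were 3093 and 910 without centring, 9363 and 8262 of 38673 where uncalled libraries were filled in at the lowest fold of their list, 925 and 1355 where the peaks in an interval were averaged, and 0 and 0 with the smallest peak width as a covariate (1857 at an unadjusted p under 0.05, limma). Leaving out 1 library at a time gave 557 to 1506 rises and 953 to 2069 falls, 9723 to 13839 gained and 6210 to 9955 lost intervals where WT or DKO libraries were left out. Fewer samples then enter the fit or the rule. The causes of the other shifts were not tested, and the fit with the width can hardly tell width from genotype. The remaining alternatives (quantile normalization, WT and DKO libraries only, intervals called in all 8 libraries, a -log10 q of at least 10 and an overlap of at least 0.5 of the peak or interval) kept these counts within 1.5 times. With the replicate number as a block 1723 rose and 2317 fell. Over 18281 intervals the deviations of same-numbered livers correlated at 0.133 between WT and DKO, and from -0.06 (Cpt2 KO and Ppara KO) to 0.172 (WT and Cpt2 KO) over the 6 pairs of genotypes. The labels tie the numbers to no shared animal or day, so the samples are taken to share only a number.

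Of 143 shared intervals given by name 133 were called. The call ended or the direction turned in all 133 with the width covariate, 61 with averaged peaks, 42 without centring, 16 with quantile normalization and 20 with WT and DKO libraries only. It ended in 54 without WT replicate 2, 52 without DKO replicate 2, 49 without DKO replicate 1 and 29 without WT replicate 1. Averaged peaks turned the direction at the start of Ppara (-0.19), Actb (-1.53), Abcd3 (0.97), Crat (-0.32), Foxa1 (0.70) and Srebf2 (0.40). Among the called intervals the width covariate turned it at Mfsd2a (0.71), Scarb1 (0.02), Acsl1 (0.05) and Nr2f2 (0.05), and among the uncalled at Clec4f (-0.48), Alb (-0.52), Csf1r (-0.02), Klrb1c (-0.05) and 1 interval of Ppara (-0.06). The depth of the libraries is unknown, so a missing peak can be a weak one.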
